A study of Mus musculus with 6 samples.

Results

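The genes described here encode 10 proteins of the sarcomere's Z-disc and its stretch-response partners: Ankrd1, Ankrd2, Csrp3, Actn2, Actn3, Myoz1, Myoz2, Myoz3, Ldb3 and Tcap. Their probe sets were chosen by name, not by signal: each is annotated to 1 gene, and that gene is in the list. All 10 genes had at least 1 such probe set, 15 in all, out of 18193 genes that single-gene probe sets name on the array. Ankrd1, Myoz1, Myoz3 and Ldb3 had several, and the other 6 genes had 1 each.

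Transcript signals were measured with Affymetrix arrays in quadriceps muscle of 8-week-old male C57/BL6 mice. The transgenic group held 3 animals carrying the nuclear receptor ERRγ (gene Esrrg) behind the α-skeletal actin promoter, given in the labels as hSkeletal Actin -ERRg. The wild-type group held 3 animals of the same strain, age and sex without it, and the comparison asks how muscle transcripts differ when muscle fibres make this receptor. That promoter is active in skeletal muscle fibres, and the number of founder lines is not given in the sources used here. Signals are MAS5 values on a linear scale, fitted by the authors' scaling to a trimmed mean of 200 on each array. Array medians ran from 57.1 to 61.9 in transgenic and from 52.1 to 56.3 in wild-type muscle. With 3 arrays of each genotype, precision is limited by their number. The brightest Esrrg probe set gave 14427, 13808 and 12697 in transgenic and 71.6, 61.0 and 24.1 in wild-type muscle. The dimmer Esrrg probe sets did not pass the test (limma adjusted p = 0.284 and 0.443). Of the 7 markers that define skeletal muscle (Acta1, Ckm, Myh4, Mylpf, Ttn, Neb and Ryr1), 0 changed, and their summed signal was 119179 to 130380 in transgenic and 105459 to 136327 in wild-type muscle.

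The Z-disc is the border between neighbouring sarcomeres, where α-actinin cross-links the actin filaments of both sides and titin is anchored. Myozenins, also called calsarcins, sit on α-actinin and hold the phosphatase calcineurin there, while Ldb3 and Tcap tie α-actinin and titin to other Z-disc proteins. Csrp3 and the muscle ankyrin repeat proteins Ankrd1 and Ankrd2 are counted as stretch-response proteins, because their transcripts change with mechanical load and the proteins are found both in the sarcomere and in the nucleus. Actn3 marks fast fibres, and Myoz2, Csrp3 and Ankrd2 are known to be more abundant in slow fibres.

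The stretches of DNA around the start sites are shown for the 4 genes with the largest rises and for Ankrd1, the relative of Ankrd2 that did not pass the test. RefSeq start-site windows, 250 bases before to 50 bases after the start, were at hand for 6 of the 10 genes. Each window is from assembly GRCm38.p6, is printed 5′ to 3′ on the gene's own strand, and has in capitals every match to a motif searched on both strands. The Ankrd2 window lies at chr19:42035777-42036076 (plus strand), the Csrp3 window at chr7:48848002-48848301 (minus strand) and the Actn2 window at chr13:12340683-12340982 (minus strand). The Myoz2 window lies at chr3:123034938-123035237 (minus strand) and the Ankrd1 window at chr19:36119795-36120094 (minus strand).
Ankrd2: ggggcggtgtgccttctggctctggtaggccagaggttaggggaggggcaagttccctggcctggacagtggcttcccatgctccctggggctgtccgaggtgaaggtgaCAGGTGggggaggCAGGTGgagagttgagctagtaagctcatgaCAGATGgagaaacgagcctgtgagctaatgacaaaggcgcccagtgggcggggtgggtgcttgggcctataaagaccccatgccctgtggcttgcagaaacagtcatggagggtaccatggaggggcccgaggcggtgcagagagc
Csrp3: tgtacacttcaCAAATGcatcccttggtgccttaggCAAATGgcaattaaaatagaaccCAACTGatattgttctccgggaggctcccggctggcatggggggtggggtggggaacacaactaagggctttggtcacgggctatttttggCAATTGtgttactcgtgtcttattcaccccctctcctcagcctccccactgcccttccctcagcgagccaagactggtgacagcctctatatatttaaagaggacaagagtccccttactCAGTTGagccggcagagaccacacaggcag
Actn2: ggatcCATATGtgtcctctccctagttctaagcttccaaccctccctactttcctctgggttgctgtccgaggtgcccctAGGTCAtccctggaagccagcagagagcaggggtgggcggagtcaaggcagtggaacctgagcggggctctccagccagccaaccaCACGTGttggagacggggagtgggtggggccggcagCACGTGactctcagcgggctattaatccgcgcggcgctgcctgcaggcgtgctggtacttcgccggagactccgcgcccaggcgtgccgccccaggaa
Myoz2: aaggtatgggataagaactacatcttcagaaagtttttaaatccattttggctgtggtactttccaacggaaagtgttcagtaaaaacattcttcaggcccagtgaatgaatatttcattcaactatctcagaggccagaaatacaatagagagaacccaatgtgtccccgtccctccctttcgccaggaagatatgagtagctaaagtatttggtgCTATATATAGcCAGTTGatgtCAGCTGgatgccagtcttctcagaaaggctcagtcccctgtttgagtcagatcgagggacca
Ankrd1: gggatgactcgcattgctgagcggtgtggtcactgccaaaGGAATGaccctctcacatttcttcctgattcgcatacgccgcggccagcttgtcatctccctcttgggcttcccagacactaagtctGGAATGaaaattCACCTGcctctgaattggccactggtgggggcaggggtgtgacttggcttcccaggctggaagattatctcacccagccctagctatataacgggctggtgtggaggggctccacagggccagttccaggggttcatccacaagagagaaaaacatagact

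The response element of the ERR family, searched as TNAAGGTCA, had 0 matches in the 8 windows of these 6 genes, and 1.28% of all 32851 windows hold it. The core of that element, AGGTCA, had 1 match, in the Actn2 window, against 16.3% of all windows. Myoz2 had the single match to a MEF2 site, CTATATATAG, with 3.19% of all windows holding one. The M-CAT motif, CATTCC or its complement GGAATG, matched at 2 places in Ankrd1 and in 14.7% of all windows. E-boxes, CANNTG, numbered 3 in Ankrd2, 5 in the Csrp3 window shown, 3 in Actn2, 2 in Myoz2 and 1 in Ankrd1, and 72.3% of all windows hold at least 1. No matches of different motifs overlapped. These are matches of letters in short windows, and binding was not measured.

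In transgenic quadriceps, 5 of the 10 genes rose, 1 fell and 4 did not pass the test. Ankrd2, Csrp3, Actn2 and Myoz2 rose by 3.58-fold to 9.58-fold, and Tcap rose by 1.32-fold. Myoz3 fell to 0.47 of its wild-type level on the same scale, while Ankrd1, Actn3, Myoz1 and Ldb3 did not pass. The test was limma on log2(signal + 16), two-sided, with Benjamini-Hochberg adjustment over 26995 probe sets and a threshold of 0.05, and folds and differences are on that scale. Each gene is represented by its brightest probe set. Across the 12529 genes tested in this way, 7.65% were higher and 5.75% were lower in transgenic muscle, and by probe set 6 of 15 passed against 11.5% of all. Of all called probe sets 55.2% were higher as deposited, and 28.9% were with the arrays scaled to a common median. The genotypes' signals did not overlap for 7 of the 10 genes, and for 33.3% of all genes. The genes were chosen with earlier results of these data known, so the shares describe them and test nothing. The median difference was 0.21 over the 10 genes and 0.03 over all genes tested. In whole muscle, fewer cells of a type and less RNA per cell cannot be told apart.

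**Figure D1:**
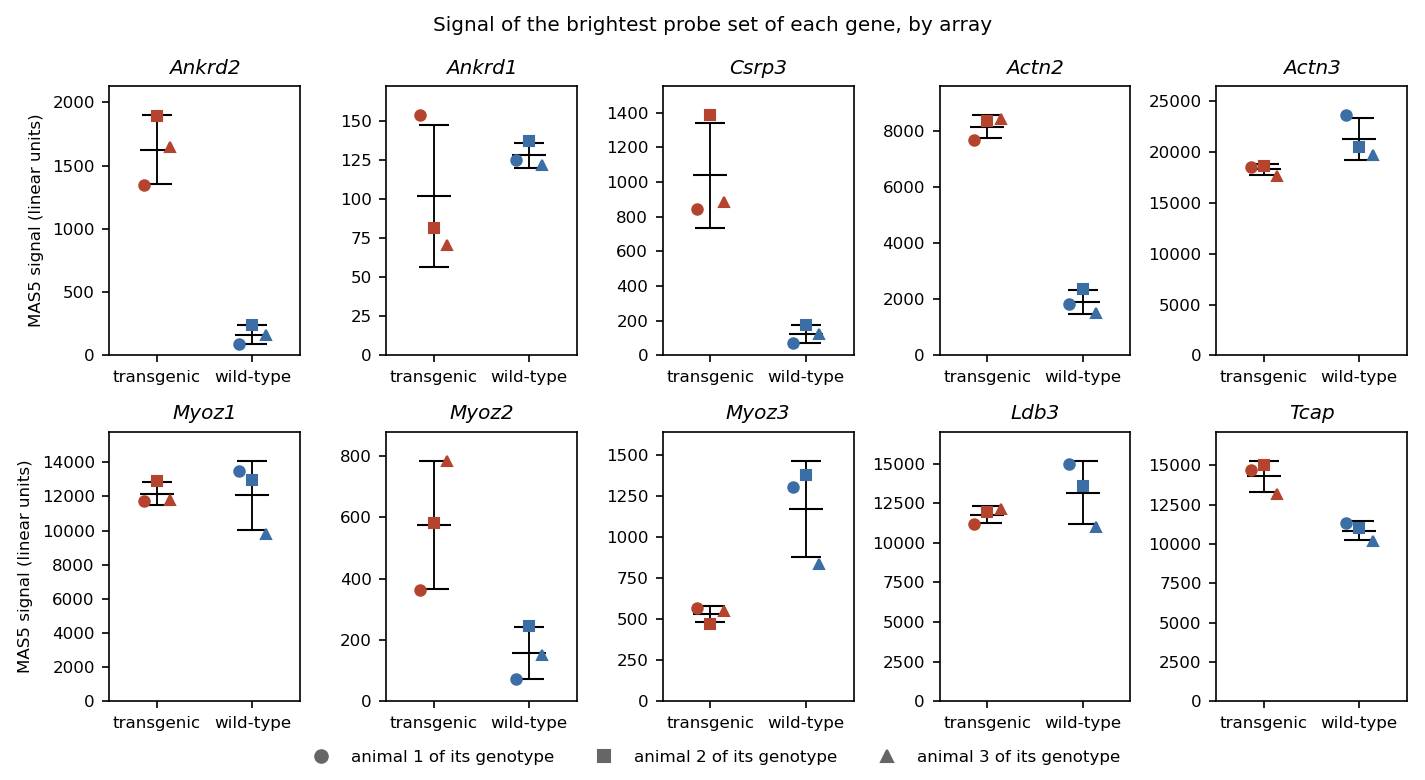
MAS5 signal (linear axis from 0) of the brightest probe set of each of the 10 genes, with transgenic arrays in red on the left and wild-type arrays in blue on the right; points are single animals and bars are mean ± SD (n = 3). Ankrd2, Csrp3, Actn2, Myoz2 and Tcap lie higher in transgenic muscle with no overlap, Myoz3 and Actn3 lie lower with no overlap, and Ankrd1, Myoz1 and Ldb3 overlap.

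The stretch-response proteins did not move together. Ankrd2 had signals of 1344.5, 1893 and 1644 in transgenic muscle, against 92.2, 241.4 and 160.2 in wild-type muscle. The lowest transgenic array was far above the highest wild-type array. The means were 1627 ± 274.4 in transgenic and 164.6 ± 74.7 in wild-type muscle (SD, n = 3 each), a difference of 3.26 (SE 0.26, limma adjusted p = 4.70e-05). This was the fourth largest rise among all genes tested. Csrp3, the muscle LIM protein that links the Z-disc to stretch signalling, had signals of 841.2, 1386.5 and 884.5 in transgenic muscle and 69.7, 173.3 and 121.7 in wild-type muscle. Its groups did not overlap either, and its difference of 2.97 (SE 0.27, limma adjusted p = 0.000107) was the seventh largest.

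Ankrd1, the cardiac ankyrin repeat protein, is the nearest relative of Ankrd2 among the 10 genes, and its groups overlapped. Its brighter probe set gave 153.7, 81.3 and 70.4 in transgenic and 125.1, 137.0 and 121.4 in wild-type muscle, with transgenic 1 the highest of all 6 arrays. The difference was -0.35 (95% interval -0.89 to 0.19, limma adjusted p = 0.406). Its other probe set gave 110.9, 62.8 and 93.8 in transgenic and 143.3, 155.0 and 97.4 in wild-type muscle, a difference of -0.50 (interval -1.01 to 0.02, limma adjusted p = 0.208). Rises of the size seen for Ankrd2 and Csrp3 lie outside both intervals. Without transgenic 1 the difference of the brighter probe set was -0.65 and did not pass (limma adjusted p = 0.0775). The log2 ratio of Ankrd2 to Ankrd1 signal within an array was 3.85 ± 0.74 in transgenic and 0.24 ± 0.58 in wild-type muscle (SD, n = 3 each). Ankrd1 signals were low and no detection calls were used, so this ratio describes signals only.

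Of the α-actinins, which cross-link actin at the Z-disc, Actn2 rose and Actn3 did not pass. Actn2 gave 7685, 8388 and 8439 in transgenic and 1844, 2365 and 1516 in wild-type muscle. Every transgenic array lay above every wild-type array, and the spread was small beside the gap. The means were 8171 ± 421.1 in transgenic and 1909 ± 428.1 in wild-type muscle (SD, n = 3 each), a 4.32-fold rise (difference 2.11, SE 0.14, limma adjusted p = 1.83e-05).

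Actn3, the isoform of fast fibres, gave 18580, 18621 and 17694 in transgenic and 23672, 20488 and 19763 in wild-type muscle. The transgenic arrays were all lower, and the difference of -0.22 (SE 0.09, 95% interval -0.42 to -0.01) missed the threshold (limma adjusted p = 0.175). Rescaling the arrays to one common median brought it past (difference -0.37, limma adjusted p = 0.0188) and after quantile normalization (difference -0.28, limma adjusted p = 0.0168). This probe set was the sixth brightest of the array by mean signal, and whether signals that bright still follow transcript level was not tested. The log2 ratio of Actn2 to Actn3 signal was -1.16 ± 0.10 in transgenic and -3.49 ± 0.33 in wild-type muscle (SD, n = 3 each), and it too describes signals only, given the brightness of Actn3.

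The 3 myozenins went 3 ways: Myoz2 rose, Myoz3 fell and Myoz1 did not pass. Myoz2, the calsarcin of slow and cardiac muscle, gave 364.2, 580.4 and 783.0 in transgenic and 73.8, 244.9 and 152.1 in wild-type muscle. The groups did not overlap, but the arrays of each spread widely. Myoz2 differed by 1.84 (SE 0.36, limma adjusted p = 0.00776), but without the intensity trend in limma's variance model it did not pass (adjusted p = 0.0519). Leaving out wild-type 1, the lowest array, gave a difference of 1.43, and leaving out wild-type 2 gave 2.20, and both passed.

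Myoz3, a calsarcin of fast fibres, gave 564.6, 472.4 and 551.8 in transgenic and 1301, 1375 and 835.5 in wild-type muscle. All transgenic arrays were lower, with wild-type 3 the nearest to them. Myoz3 differed by -1.09 (SE 0.18, limma adjusted p = 0.00291), and by -1.31 without wild-type 3. The dimmer Myoz3 probe set gave 71.6, 47.1 and 89.6 in transgenic and 80.6, 92.4 and 69.7 in wild-type muscle. Those groups overlapped, and its difference of -0.21 (95% interval -0.74 to 0.33) did not pass (limma adjusted p = 0.641). The fall therefore rests on 1 of 2 probe sets, and with both averaged the difference was -0.65 (limma adjusted p = 0.0347).

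Myoz1, the main calsarcin of fast fibres, gave 11762.5, 12933 and 11802 in transgenic and 13498, 12962 and 9772 in wild-type muscle. The wild-type arrays spanned the transgenic ones. Its difference was 0.02 (95% interval -0.25 to 0.30, limma adjusted p = 0.930), and it was -0.12 without wild-type 3. The dimmer Myoz1 probe set had a difference of -0.23 (interval -0.52 to 0.06, limma adjusted p = 0.311), with 900.8 to 1130 in transgenic and 1009 to 1288 in wild-type muscle. The log2 ratio of Myoz2 to Myoz3 signal was 0.06 ± 0.59 in transgenic and -2.88 ± 0.87 in wild-type muscle, and that of Myoz3 to Myoz1 was -4.48 ± 0.21 in transgenic and -3.37 ± 0.15 in wild-type muscle (SD, n = 3 each). For the ratio of Myoz2 to Myoz1 the values were -4.43 ± 0.53 in transgenic and -6.24 ± 0.86 in wild-type muscle. Each of the 5 ratios compared, all chosen after their values were seen, gave p = 0.1 in an exact two-sided permutation test (0.1 after adjustment over the 5). This is the smallest p that 3 arrays against 3 allow.

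Ldb3 and Tcap, which connect α-actinin and titin within the disc, were bright on all arrays. Tcap, or telethonin, the cap that joins the ends of titin molecules, gave 14684, 15042 and 13193 in transgenic and 11314, 11008 and 10154 in wild-type muscle. The groups did not overlap. The difference was small, at 0.40 (SE 0.09, limma adjusted p = 0.0179). The call was lost in 6 of 18 alternatives, among them without transgenic 1, transgenic 2 or wild-type 2 (limma adjusted p = 0.0807, 0.0594 and 0.0610), and with arrays scaled to a common median (difference 0.25, adjusted p = 0.0979).

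Ldb3, also known as ZASP or Cypher, binds α-actinin through its PDZ domain. Its brightest probe set gave 11154, 11962 and 12161 in transgenic and 14947, 13566 and 10984.5 in wild-type muscle. The groups overlapped at wild-type 3, and the difference was -0.15 (95% interval -0.41 to 0.10, limma adjusted p = 0.451). Its dimmer probe sets had differences of -0.09 and -0.14, with adjusted p = 0.716 and 0.618 from limma. After quantile normalization the brightest probe set passed as lower (difference -0.27, limma adjusted p = 0.0437). The 3 probe sets point the same way and share the order of the wild-type arrays, with wild-type 3 the lowest in each.

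**Figure D2:**
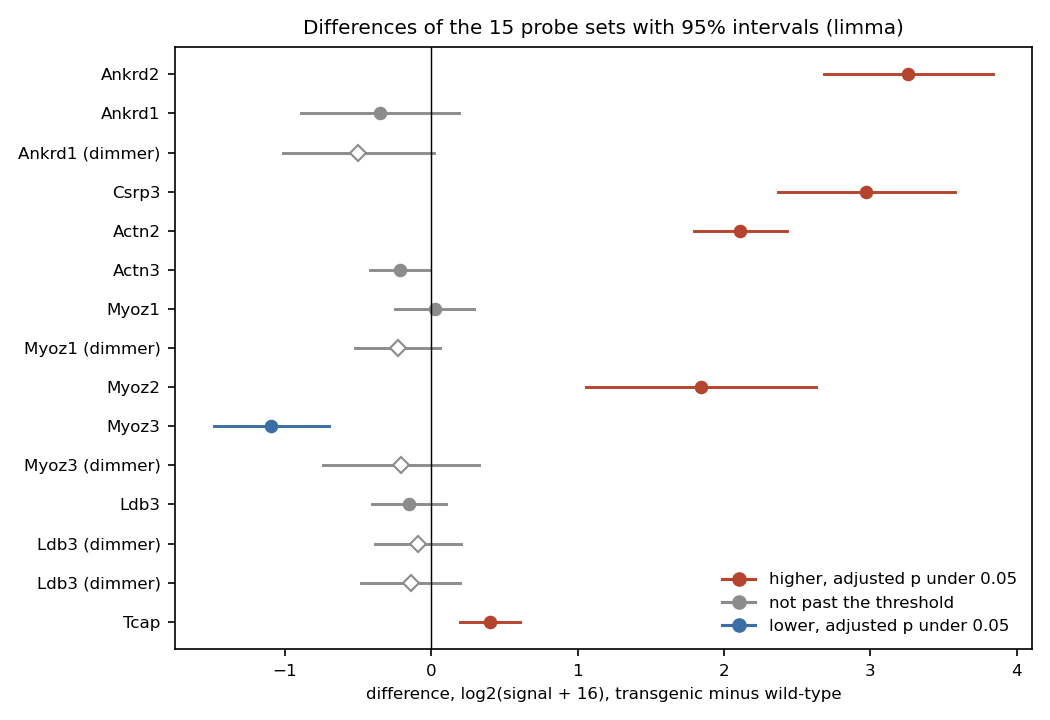
Differences of log2(signal + 16), transgenic minus wild-type, for all 15 probe sets with 95% intervals from limma; circles are the brightest probe set of a gene, open diamonds the dimmer ones, and colour gives the call at an adjusted p under 0.05. The 4 intervals of Ankrd2, Csrp3, Actn2 and Myoz2 lie wholly above 1, while every dimmer probe set has an interval that includes 0.

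Some genes abundant in slow fibres were also higher in transgenic muscle. In the slow-fibre list 3 of the 10 genes tested rose, 0 fell and 7 missed the threshold, and the median difference was 1.79 against 0.03 for all genes. The count was 6 higher without transgenic 1, and 4 with a constant of 1 in place of 16 or with a gene's probe sets averaged. It was 2 without the intensity trend, with limma's robust option, and without transgenic 3 and wild-type 3. The counts of this and the other companion lists stand beside shares of 7.65% higher and 5.75% lower over all genes tested. The risers were Myl2, slow regulatory light chain (3.11), Tnnt1, slow troponin T (2.48), and Casq2, the calsequestrin of slow fibres (2.10). The list's summed signal was 2830, 3428 and 9438 in transgenic and 1980, 1966 and 1929 in wild-type muscle, so that transgenic 3 stood apart. Myh7, the slow myosin, chosen after its values were seen, gave 21.4, 129.1 and 900.8 in transgenic and 5.4, 9.6 and 9.7 in wild-type muscle, and did not pass (limma adjusted p = 0.0606). The wild-type means of Tnnt1 (13.9), Myh7 (8.2) and Tnni1 (37.1) lay below the filter signal of 37.8. Tnni1 too was chosen after its values were seen. These genes were tested, and entered the list's count and median, only because their transgenic signals were higher.

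Myoz2 had the same order over the transgenic arrays as that sum, highest in transgenic 3 and lowest in transgenic 1, whereas Ankrd2 and Csrp3 were highest in transgenic 2. Without transgenic 3 the differences were 3.25 for Ankrd2, 3.07 for Csrp3, 2.09 for Actn2 and 1.59 for Myoz2, and all passed (limma adjusted p = 0.000804, 0.0011, 0.000382 and 0.0381). Without transgenic 3 and wild-type 3, an alternative chosen after seeing the data, 5 of the 10 genes were higher and 1 was lower. Among the wild-type arrays, Ankrd2, Csrp3 and Myoz2 were each highest in wild-type 2 and lowest in wild-type 1. Slow-fibre genes had no single order there. Tnnc1, slow troponin C, chosen after its values were seen, gave 92.1, 140.3 and 104.8 in wild-type muscle, the same order. Casq2 gave 205.3, 208.8 and 145.0, with wild-type 3 the lowest. Tnnt1 gave 19.6, 17.6 and 4.5, all below the filter signal of 37.8, so its order says little. The part of fibre types in these differences was not tested. In the fast-fibre list, Myh1, a fast myosin, rose (0.67) and 0 of 12 fell, and the median was 0.02. Each of the following alternatives gave 1 lower call: without wild-type 3, arrays scaled to a common median, quantile normalization, and a gene's probe sets averaged.

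**Figure D3:**
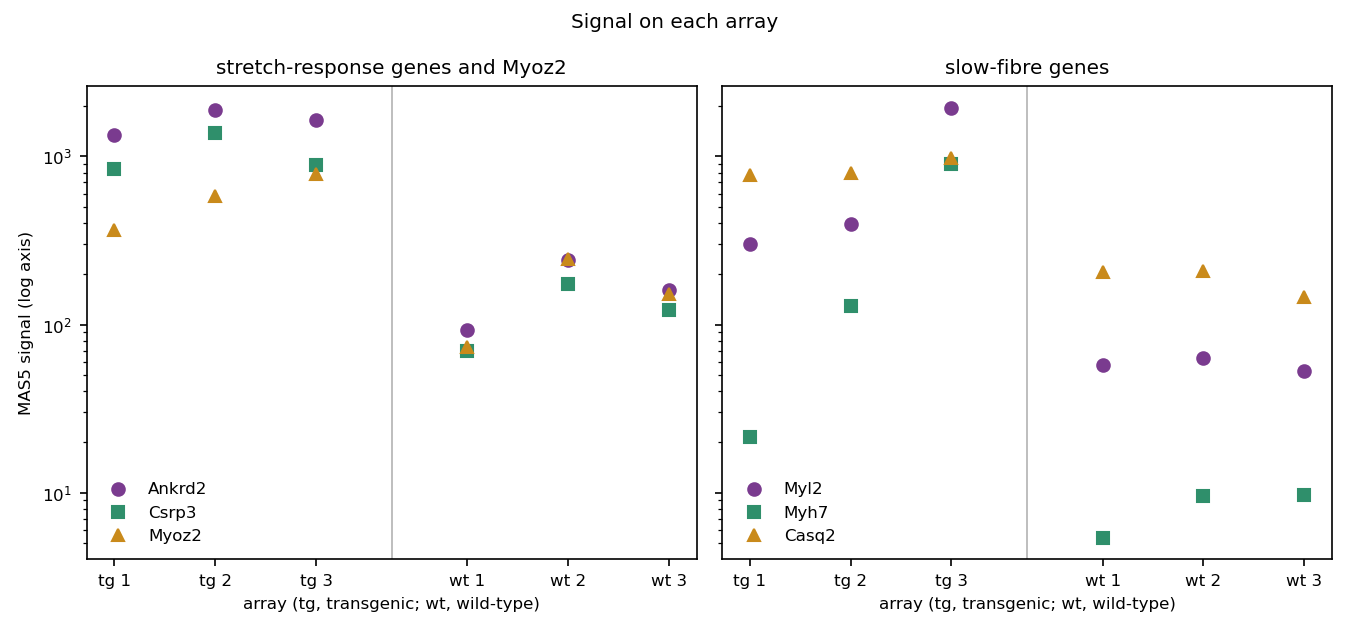
MAS5 signal on a log axis for each of the 6 arrays, transgenic (tg) on the left of each panel and wild-type (wt) on the right; the left panel holds Ankrd2, Csrp3 and Myoz2, the right panel Myl2, Myh7 and Casq2. Myh7 and Myl2 reach 900.8 and 1954 in transgenic 3 alone, while Ankrd2 and Csrp3 peak in transgenic 2 at 1893 and 1386.5.

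Markers of other cells and states were examined beside the members. Of 9 cardiomyocyte markers, sought because Csrp3, Ankrd1 and Myoz2 are abundant in heart, 0 of the 2 tested changed. Their summed signal was 207.4 to 256.0 in transgenic and 182.3 to 315.0 in wild-type muscle. Signals of these markers were low, with Myh6 at no more than 26.9 on any array and a highest value of 70.5, for Nppb in wild-type 1. The untested markers went both ways. Mean signals in transgenic and wild-type muscle were 34.9 and 11.4 for Tnni3 and 18.4 and 5.5 for Mybpc3. They were 14.9 and 28.0 for Nppa and 20.9 and 31.5 for Nppb. Of the 8 markers of regenerating fibres and satellite cells, Myh8, perinatal myosin, fell by 1.76 and 0 rose, with sums of 746.8 to 828.4 in transgenic and 958.3 to 1254 in wild-type muscle. Of 8 genes listed as markers of denervated fibres, 7 were tested, with a median difference of -0.08. The list did not sort genes by whether they rise or fall on denervation, so its median and sums cannot be read as a direction. Chrna1, the acetylcholine receptor α subunit (1.24), and Gadd45a (0.76) rose and 0 fell. Hdac9 (-0.53), Musk (-0.37), Ncam1 (-0.14), Runx1 (-0.08) and Myog (0.05) did not pass. Chrng, the fetal receptor subunit, was at most 45.6 and was not tested. The sums of the 8 were 1829 to 2244.5 in transgenic and 1240 to 1415 in wild-type muscle. The 2 risers were the brightest markers in them, with means of 940.3 against 553.4 for Gadd45a and 510.3 against 203.3 for Chrna1.

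Endothelial markers rose in 5 of 7 cases, with sums of 3584 to 4170 in transgenic and 2269 to 2398 in wild-type muscle. Of 6 pericyte and smooth muscle markers 5 were tested, and Rgs5 and Kcnj8 rose. Pdgfrb, Acta2 and Myh11 did not pass (limma adjusted p = 0.338, 0.125 and 0.103). The sums were 11594 to 13198 in transgenic and 7157 to 8608 in wild-type muscle, with Rgs5 (means 8773 and 5183) the largest part. Of 6 leukocyte markers 4 were tested, and Lyz2 fell. Their sums were 977.4 to 1350 in transgenic and 1440 to 1804 in wild-type muscle, with Lyz2 (means 713.6 and 1053) the largest part. Fibroblast and tendon markers changed in 0 of 7 tested, with sums of 30910 to 32306 in transgenic and 30391 to 37390 in wild-type muscle. Adipocyte markers changed in 0 of 5, but their sum of 26420 in wild-type 3 was above the 12706 to 17366 of transgenic muscle and the 13854 and 11500.5 of the other wild-type arrays. Wild-type 3 was the lowest wild-type array for 7 of the 10 genes, namely Ankrd1, Actn2, Actn3, Myoz1, Myoz3, Ldb3 and Tcap. How often it was the lowest over all genes was not counted. The part of any of these cells in the members' differences was not tested.

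Other Z-disc genes moved in both directions. The companion list had 30 tested genes, of which 5 were higher, 8 were lower and 17 missed the threshold; their median difference was -0.15. Lmcd1, a LIM protein that restrains GATA factors and is linked to calcineurin signalling, gave 2369, 2602 and 2265 in transgenic and 548.0, 645.5 and 478.9 in wild-type muscle. It did not overlap and rose by 2.09 (SE 0.13, limma adjusted p = 7.42e-06). Pdlim1, a PDZ and LIM protein that binds α-actinin, rose by 1.36 (SE 0.11), with 782.3 to 868.3 in transgenic and 294.8 to 332.9 in wild-type muscle.

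Sorbs2, an adaptor of the Z-disc that also occurs at cell contacts, gave 354.5, 299.8 and 361.3 in transgenic and 1340, 1410 and 1106 in wild-type muscle. It fell by 1.87 on the log2 scale (SE 0.13, limma adjusted p = 2.21e-05). The genes named in the next sentences were chosen after their values were seen. Myot (0.55), Nrap (0.74) and Bag3 (0.995) also rose, while Pdlim3 (-1.36), Pdlim5 (-0.53), Mypn (-0.53), Palld (-0.57) and the actin-capping subunits Capza2 (-0.52) and Capzb (-0.59) fell. Ppp3r1, the regulatory subunit of the calcineurin that myozenins bind, fell by 0.58 on the log2 scale, whereas the catalytic subunits Ppp3ca and Ppp3cb, at -0.27 and -0.29, did not pass. The counts were 3 higher and 4 lower without the intensity trend.

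In the list for the titin I-band and stretch response, higher calls numbered 2 and lower calls 4 among 20 tested genes, and the median was -0.01. Fhl1, a LIM protein of the I-band that is linked to stretch sensing through titin, gave 7537, 9374 and 8323 in transgenic and 3004, 4986 and 3550 in wild-type muscle. It rose by 1.15 (SE 0.17, limma adjusted p = 0.00149), with no overlap, while its dimmer probe set, at 0.39, did not pass (limma adjusted p = 0.238). Capn3, the protease bound to titin, fell by 0.99 on the log2 scale (SE 0.10, limma adjusted p = 0.000217), with signals of 974.8 to 995.1 in transgenic and 1806.5 to 2158 in wild-type muscle. Atf3, a stress-induced transcription factor, rose by 0.99 and had low signals of 69.7 to 119.6 in transgenic and 28.5 to 45.2 in wild-type muscle. Its wild-type mean of 37.3 lay below the filter signal of 37.8. Ankrd23, the third muscle ankyrin repeat protein, was chosen after its value was seen, and had a difference of 0.20 (limma adjusted p = 0.224). The 4 lower calls became 1 without wild-type 1, 2 on leaving out transgenic 1, transgenic 3 or wild-type 2, and 8 without wild-type 3. The 2 higher calls became 1 on leaving out any of transgenic 1, transgenic 2, wild-type 1 and wild-type 2.

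In the M-band, the border in the sarcomere's middle, 9 genes were tested: 1 was higher, 2 were lower, and the median was -0.10. Myom3, a myomesin found mainly in slow and intermediate fibres, gave 125.7, 137.8 and 150.4 in transgenic and 37.9, 44.1 and 7.9 in wild-type muscle, and rose by 1.85 (SE 0.33, limma adjusted p = 0.00525). Its wild-type mean of 30.0 lay below the filter signal of 37.8, so it was tested only through its transgenic signals. With the filter at the 60th percentile, the list had 0 higher calls. Trim63, or MuRF1, a ubiquitin ligase that binds titin there, fell by 0.79 on the log2 scale, and Sqstm1, an autophagy adaptor, by 0.39. A dimmer Sqstm1 probe set had a difference of 0.36 and did not pass (limma adjusted p = 0.431). On leaving out any of transgenic 1, transgenic 3, wild-type 1 and wild-type 2, the lower calls numbered 1.

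Among costamere genes, which tie Z-discs to the fibre membrane, 17 were tested, with 2 higher, 2 lower and a median of 0.02. Over all genes tested, 7.65% were higher and 5.75% were lower. Tln1, talin 1, which links integrins to actin, gave 2567, 2672 and 2386 in transgenic and 756.4, 793.3 and 673.6 in wild-type muscle at its brightest probe set. That probe set rose by 1.76 (SE 0.11, limma adjusted p = 7.42e-06), while its dimmer probe sets had differences of -0.03 and 0.38 and did not pass. Lims2, a LIM protein of integrin complexes, rose by 0.73, and Dag1, dystroglycan, fell by 0.57 on the log2 scale. Of the dimmer Dag1 probe sets 1 did not pass (difference -0.38, limma adjusted p = 0.0603). Lower calls numbered 1 on leaving out any of transgenic 1, transgenic 2, wild-type 1 and wild-type 2.

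**Figure D4:**
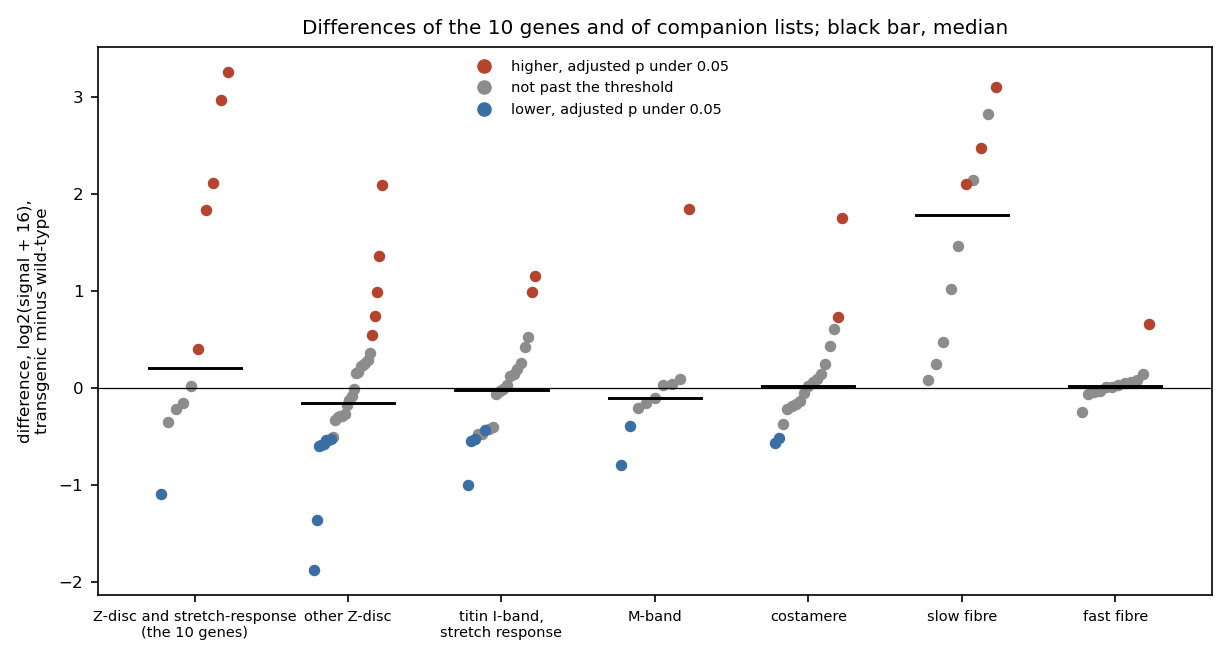
Differences of log2(signal + 16), transgenic minus wild-type, for the 10 genes and the 6 companion lists; each point is the brightest tested probe set of a gene, colour gives the call at an adjusted p under 0.05 and black bars are medians. The slow-fibre list has a median of 1.79, while the other companion lists have medians from -0.15 to 0.02.

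For each of the 10 genes, the gene outside the list with the most similar signals over the 6 arrays was sought by Pearson correlation of log2(signal + 16), as a description. Lmod2 was nearest to Csrp3 (r = 0.9995), with 1222, 1580 and 1279 in transgenic and 266.3, 456.3 and 366.1 in wild-type muscle. Mrpl46 was nearest to Ankrd2 (r = 0.9991), 2310065F04Rik to Actn2 (r = 0.9991), Cracr2b to Myoz2 (r = 0.9953), Pign to Tcap (r = 0.9972) and Setd7 to Myoz3 (r = 0.9987). The nearest genes to those that did not pass were Gxylt2 for Ankrd1 (r = 0.9948), Tdrd7 for Actn3 (r = 0.9960), Cdr2l for Myoz1 (r = 0.9872) and C130026I21Rik for Ldb3 (r = 0.9846). The 6 points of each correlation share the difference in genotype.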

How the data were processed

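The data are 1 table of 6 arrays with 45101 probe sets. Per the submitters' processing notes the authors used MAS5, and the deposited signal intensity is linear; no version or setting of it is known here. Each array has a 2% trimmed mean of 200.0, so only a scaling factor was applied by the authors as far as the values show. Detection calls were not used here.

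The 64 AFFX control probe sets were left out, and probe sets with a mean signal above the 40th percentile (37.8) were tested, 26995 in all. All 15 probe sets of the 10 genes passed. By the platform's annotation, 34945 probe sets name 1 gene and 932 several, and none was named from several. Signals were transformed as log2(signal + 16), which understates changes of low signals. limma 3.58.1 (R 4.3.3, with lmFit, then eBayes with trend) gave two-sided p-values, adjusted by Benjamini-Hochberg. A simulation with independent noise checked only that the fit finds changes put into it. It held no outlying arrays, so it does not show how the fit behaves with the spread seen here. A gene is represented by its brightest single-gene tested probe set. Replicates are separate animals by their titles.

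The genes, lists, alternatives and tests were chosen with earlier results of these data known. Named beyond the 10 genes and Esrrg are the 3 largest called differences in each list, the most similar gene for each member, genes of the marker lists, and genes said to be chosen after their values were seen. Nebl, Tead4, Nppb and Krt19 of the lists were below the filter, and some other listed genes are not reported here. Promoter windows are from RefSeq, and figures used Python 3.11.15 with matplotlib 3.10.9.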

Additional observations from a re-analysis of the deposited data

How the results depend on the processing

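Over the 18 alternatives, differences ran from 2.93 to 3.56 for Ankrd2, 2.57 to 3.24 for Csrp3, 1.93 to 2.28 for Actn2, 1.43 to 2.20 for Myoz2 and -1.35 to -0.65 for Myoz3. Ankrd2, Csrp3, Actn2 and Myoz3 passed in all 18, Myoz2 in 17, Tcap in 12, Actn3 in 2, Ldb3 in 1, and Ankrd1 and Myoz1 in 0. Without the intensity trend, 1584 probe sets passed in place of 3115, and 3 of the 10 genes were higher, with Myoz2 and Tcap lost. Without any filter Tcap had an adjusted p of 0.115, where more probe sets were tested. Leaving out 1 array gave 1705 to 3301 changed probe sets, and 4 to 5 genes of the 10 higher. Scaling to a common median moved the median of all tested differences by -0.14, to -0.09 in place of 0.05, and made 28.9% of calls higher in place of 55.2%. With it 2 of the 10 genes were lower, and after quantile normalization 3 were lower. Myoz1, whose difference was 0.02, turned to -0.13 with median scaling, -0.12 after quantile normalization, -0.046 with array weights and -0.10 with its probe sets averaged. Leaving out 1 array gave it -0.12 to 0.11, with -0.02 without transgenic 2, -0.12 without wild-type 3 and -0.10 without transgenic 3 and wild-type 3. The causes of these changes were not tested. Over all tested probe sets, the correlations of deviations between same-numbered arrays were 0.07, -0.08 and -0.02. Those between differently numbered arrays ran from -0.09 to 0.11. Values over so many probe sets cannot exclude a pairing at some genes, and the titles name none. With the replicate number as a block, 2744 probe sets passed, and the calls of the 10 genes did not change (5 higher, 1 lower). Among the called genes, the block lowered the limma adjusted p of Ankrd2 (9.8e-06), Csrp3 (1.46e-05) and Myoz2 (0.000696). It raised that of Actn2 (2.75e-05), Myoz3 (0.00385) and Tcap (0.0254). The block gave 5 higher calls in the slow-fibre list in place of 3. Of 216 recounts of the companion lists, 180 stayed within 1.5 times the reported count. That share says little about stability, because the counts are small. Lower calls in the slow-fibre and fast-fibre lists were 0 to begin with, and a change from 3 to 2 lies within the factor. No detection calls were used, so for Ankrd1, the dimmer Myoz3 probe set and other low signals whether transcript was detected is not known.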

Other observations

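The wild-type arrays differed among themselves in a shared order at several of the 10 genes. Wild-type 2 was the highest wild-type array for 6 of them and the lowest for 0, and wild-type 3 was the highest for 0. In wild-type muscle Ankrd2, Csrp3 and Myoz2 were each lowest in wild-type 1, at -0.65, -0.61 and -0.81 from their wild-type mean on the log2 scale. Transgenic 1 was the lowest transgenic array for 6 of the 10 genes, with Myoz2 at -0.57 from its transgenic mean, and was the highest for Ankrd1, at 0.59. Whether these orders come from the animals or from the arrays was not tested, and how common they are over all genes was not counted.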
